A study of Mus musculus with 38 samples.

Results

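Kidneys with anti-glomerular basement membrane (anti-GBM) disease were compared with healthy kidneys while all mice received fibroblast growth factor 23 (FGF23). The comparison held 6 of the 38 libraries of the series, 3 anti-GBM mice (NTS13, NTS14 and NTS16) and 3 healthy mice (NTS9, NTS10 and NTS11), taken by their group labels and by no measured value. FGF23 is a hormone released by bone that acts on the kidney through FGF receptors and the co-receptor Klotho, where it lowers phosphate reabsorption in the proximal tubule and lowers the making of active vitamin D. In anti-GBM disease, antibodies bind the basement membrane of the glomerular capillaries, complement and leukocytes follow, and protein leaks into the tubules. The proximal tubule, which takes up filtered protein and most solutes, responds to such injury by losing transporters and making injury proteins such as Kim-1 and lipocalin-2.

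All 6 mice were male C57BL/6JRj animals. Anti-GBM mice were immunised at 8 weeks of age with sheep IgG in Freund's complete adjuvant and given nephrotoxic serum, an antiserum against the glomerular basement membrane, into a vein 4 days later, whereas control mice had phosphate-buffered saline. Whether control mice were also immunised is not given in the sources used here. Both groups had recombinant human FGF23, 1 µg by vein once a day for 6 days, starting 1 day after the serum, and tissue was collected 24 h later, counted from the final dose. RNA came from a fragment of the middle zone of the kidney of each mouse, so a difference could reflect the cells present in the fragment as well as their RNA. In bulk samples, fewer cells of a type and less RNA per cell cannot be told apart. Anti-GBM and healthy mice of the same strain that had vehicle in place of FGF23 gave the same disease comparison without the hormone (4 and 4 mice). No library was shared with the FGF23 comparison. Female BALB/c mice with Adriamycin nephropathy, a toxic podocyte disease, and healthy female BALB/c mice gave a disease comparison in another model. Both of these BALB/c groups had a single injection of FGF23, with tissue collected 24 h later.

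The libraries held between 14791028 and 23084854 counts. Levels are given in CPM, counts divided by the library total times its TMM factor and multiplied by 1000000. Correlations of log2 CPM between mice of a group lay between 0.981 and 0.989, and those between the groups lay between 0.954 and 0.969. Markers of proximal tubule, loop of Henle, distal tubule, collecting duct, podocytes and endothelium were present in every library. Ly6g of neutrophils, Cyp11b1 and Cyp11b2 of the adrenal cortex and Prss2 of the pancreas were at 0 throughout. Other markers of these sets were not, with Cela1 of the pancreas set between 41.6 and 85.6 CPM and Star of the adrenal set between 0.673 and 1.54 CPM. S100a8 and S100a9 of neutrophils had counts in every library. Of the hepatocyte set, Ttr lay between 60.04 and 93.2 CPM and Alb between 2.498 and 9.34 CPM. Of the 3 healthy mice, NTS9 carried adipocyte RNA, with Adipoq at 26.5 CPM against at most 1.55 CPM in the other mice and Plin1 at 16.7 CPM against at most 0.55 CPM. NTS10 had the most collecting duct RNA by the summed level of Aqp2 and Atp6v1b1. This sum was 506.8 CPM there and between 220.3 and 327.4 CPM in the other 5 mice. The excess lay in Aqp2, at 386.6 CPM, since Atp6v1b1 was at 120.2 CPM in NTS10 and between 79.4 and 127 CPM in the others. Of 20 collecting duct and water channel genes, NTS10 was the highest healthy mouse in 14. The summed level of 5 proximal tubule markers was 11190, 10620 and 10060 CPM in NTS9, NTS10 and NTS11, and 5948, 7317 and 8170 CPM in NTS13, NTS14 and NTS16.

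Of 15859 genes tested, 2299 (14.5%) rose and 2011 (12.7%) fell in anti-GBM kidneys at an adjusted p below 0.05 by the quasi-likelihood test of edgeR. A difference of more than 1 on the log2 scale as well was found for 1171 genes that rose (7.38%) and 273 that fell (1.72%). Strong changes were mostly rises, whereas the median log2 fold change over all genes was -0.02. The CPM values of the groups did not overlap for 7193 genes (45.4%). Leaving out NTS9, NTS11 or NTS13 left 1172, 1088 and 1086 genes that fell and between 1802 and 1872 that rose, so the count of lower genes rested more on these mice. Values below are CPM per mouse in the order NTS9, NTS10 and NTS11 for healthy and NTS13, NTS14 and NTS16 for anti-GBM mice, and log2 fold changes are anti-GBM relative to healthy with their standard error.

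The genes with the smallest p among the strong rises were Mrc2, Psmb8, Plac8, Osmr, Fn1, Vcam1, Ctsc and Cygb. Mrc2, a receptor that takes up collagen, was at 30.4, 34.2 and 28.8 CPM in healthy and 105, 95.04 and 100.4 CPM in anti-GBM kidneys (log2 fold change 1.68 ± 0.10, adjusted p 8.48e-07). Osmr, a receptor subunit for oncostatin M, was at 10.8, 11.1 and 10.9 against 63.04, 43.1 and 43.2 CPM (log2 fold change 2.19 ± 0.14, adjusted p 9.11e-07). Cygb, a globin of fibroblasts, was at 20.3, 15.8 and 20.3 against 65.3, 60.4 and 52.3 CPM (log2 fold change 1.66 ± 0.12, adjusted p 2.69e-06). In these 3 genes the healthy mice lay close together and every anti-GBM mouse lay above them, which picking genes by smallest p favours. Ctsc, a lysosomal protease that activates leukocyte proteases, rose by 1.498 on the log2 scale. The largest rises among genes of at least 5 CPM were those of Krt20, Havcr1, Serpina10, Lcn2, Il1rn, Sox9, Cxcl1 and Aoc1. Serpina10, a serpin that inhibits a coagulation protease, was at 0.892, 0.817 and 1.05 CPM in healthy and 52.4, 28.3 and 35.7 CPM in anti-GBM kidneys (log2 fold change 5.41 ± 0.46, adjusted p 5.02e-06). Aoc1, an amine oxidase, was at 3.76, 4.04 and 4.74 against 136, 73.97 and 83.03 CPM (log2 fold change 4.56 ± 0.37, adjusted p 3.6e-06).

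The strong falls with the smallest p were those of Nxpe3, F13b, Dpys, Airn, Gm15638, Azgp1, Ugt1a7c and Mfsd9. F13b, the carrier subunit of coagulation factor XIII, was at 169, 159.8 and 146 CPM in healthy and 56.3, 71.7 and 69.6 CPM in anti-GBM kidneys (log2 fold change -1.27 ± 0.13, adjusted p 1.81e-05). Dpys, an enzyme of pyrimidine breakdown, was at 25.2, 26.5 and 27.5 against 7.01, 10.3 and 10.3 CPM (log2 fold change -1.52 ± 0.17, adjusted p 3.54e-05). Ugt1a7c, a glucuronidating enzyme, was at 295, 279.8 and 284 against 143, 136 and 146 CPM (log2 fold change -1.01 ± 0.13, adjusted p 7.91e-05). All healthy mice stood above all anti-GBM mice in each of them, which the choice by smallest p favours. Airn, Gm15638 and the strongly lower Gm15441 are annotated as antisense RNAs, and since the strand setting of the counting is not given in the sources used here, their counts could hold reads of the opposite gene. The largest falls among genes of at least 5 CPM in healthy kidneys were those of Igfbp1, Gm15441, Aldh1a3, Hpd, Dnase1, Clec2h, Hrg and Cyp4a12a. Hpd, an enzyme of tyrosine breakdown, was at 38.96, 48.6 and 52.7 against 7.35, 10.1 and 9.16 CPM (log2 fold change -2.40 ± 0.37, adjusted p 0.000413), and Dnase1, a secreted nuclease, at 992, 1056 and 858 against 133, 221 and 245 CPM (log2 fold change -2.28 ± 0.52, adjusted p 0.00571). The call of Cyp4a12a, a fatty acid hydroxylase, was lost when a mouse was left out (log2 fold change -2.11 ± 0.59, adjusted p 0.017, adjusted p 0.0764 without NTS9 and 0.0649 without NTS16). Aldh1a3, which makes retinoic acid, was high in NTS10 alone, at 2.72, 66.98 and 1.67 against 4.85, 2.302 and 2.18 CPM, and its log2 fold change of -2.94 became 0.48 without that mouse.

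The medians of the 37 gene lists examined ranged from a log2 fold change of 2.07 in macrophage genes to -0.64 in organic anion and cation transporters. Counts of members that rose or fell stand against 14.5% and 12.7% of all genes.

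**Figure D1:**
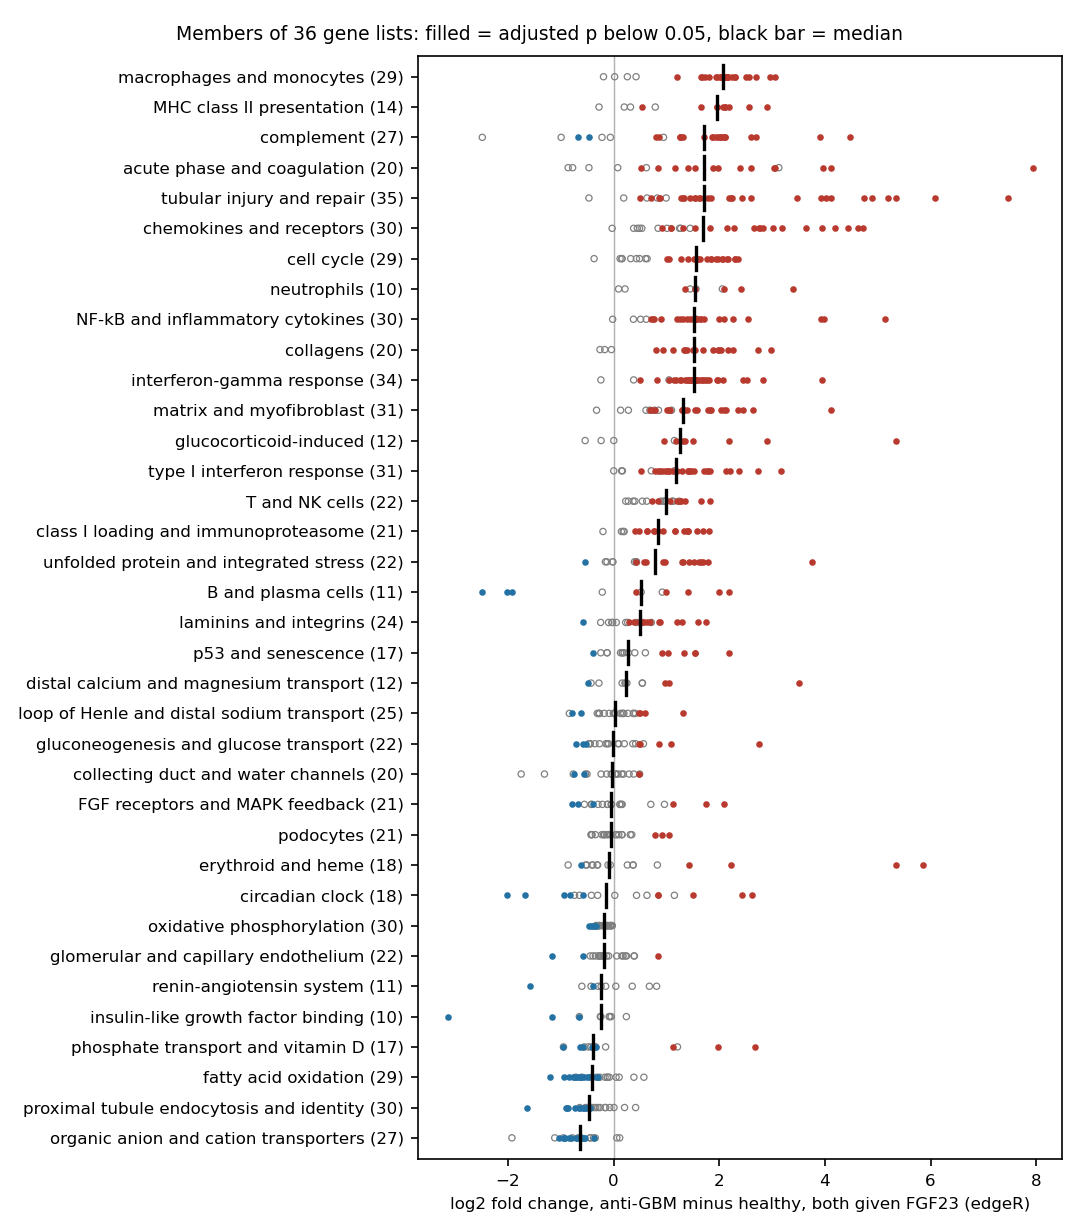
Log2 fold changes (horizontal axis) of the tested members of each gene list, anti-GBM minus healthy, 3 against 3 mice given FGF23, in rows ordered by the list's median (black bar). Filled points are genes that rose (red) or fell (blue) at an adjusted p below 0.05 and open points did not pass, and the number tested follows each name, with the 4 Y-linked genes left out. Medians run from 2.07 for macrophage genes to -0.64 for organic anion and cation transporters, and the farthest points to the right are Saa1 and Krt20.

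Genes of tubular injury and repair rose in 30 of 35 members and none fell, with a median log2 fold change of 1.71. Havcr1, which encodes the injury receptor Kim-1, was at 7.89, 1.25 and 3.27 CPM in healthy and 476, 191 and 185 CPM in anti-GBM kidneys (log2 fold change 6.08 ± 0.59, adjusted p 1.25e-05, ENSMUSG00000040405, GRCm38 chromosome 11, 46735080 to 46779578). Lcn2, the iron-binding lipocalin-2, was at 1.08, 3.27 and 1.67 against 142, 54.1 and 52.7 CPM (log2 fold change 5.35 ± 0.73, adjusted p 0.000164, ENSMUSG00000026822, GRCm38 chromosome 2, 32384633 to 32388252). Krt20, a keratin of injured tubule cells, was at 0.422, 0.0481 and 0.139 against 69.04, 27.1 and 19.9 CPM (log2 fold change 7.47 ± 0.75, adjusted p 1.6e-05). For all 3 genes every anti-GBM mouse was far above every healthy mouse, and NTS13 was the highest. Sox9, a transcription factor of tubule repair, was at 1.03, 0.529 and 0.557 against 36.6, 13.3 and 14.9 CPM (log2 fold change 4.89 ± 0.50, adjusted p 1.81e-05), and Timp1, an inhibitor of matrix proteases, at 1.46, 0.433 and 0.627 against 19.8, 10.7 and 14.7 CPM (log2 fold change 4.12 ± 0.46, adjusted p 3.6e-05). Spp1, the matrix protein osteopontin, was the member with the most counts, at 574, 618 and 488 CPM against 8274, 4582 and 5722 CPM (log2 fold change 3.47 ± 0.43, adjusted p 7.2e-05). The keratins Krt18 and Krt19, Cryab and Hmox1 did not pass the test, nor did Plau, which encodes urokinase and was at 488, 449 and 743 against 464, 416 and 337 CPM. Gdf15, a stress cytokine, rose by 1.54 on the log2 scale (adjusted p 0.0548 without NTS9, 0.0548 without NTS10 and 0.0758 without NTS13). Sprr2f was nearly absent from healthy kidneys, with 0, 0 and 1 counts, and had 17, 4 and 19 counts in anti-GBM kidneys.

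**Figure D2:**
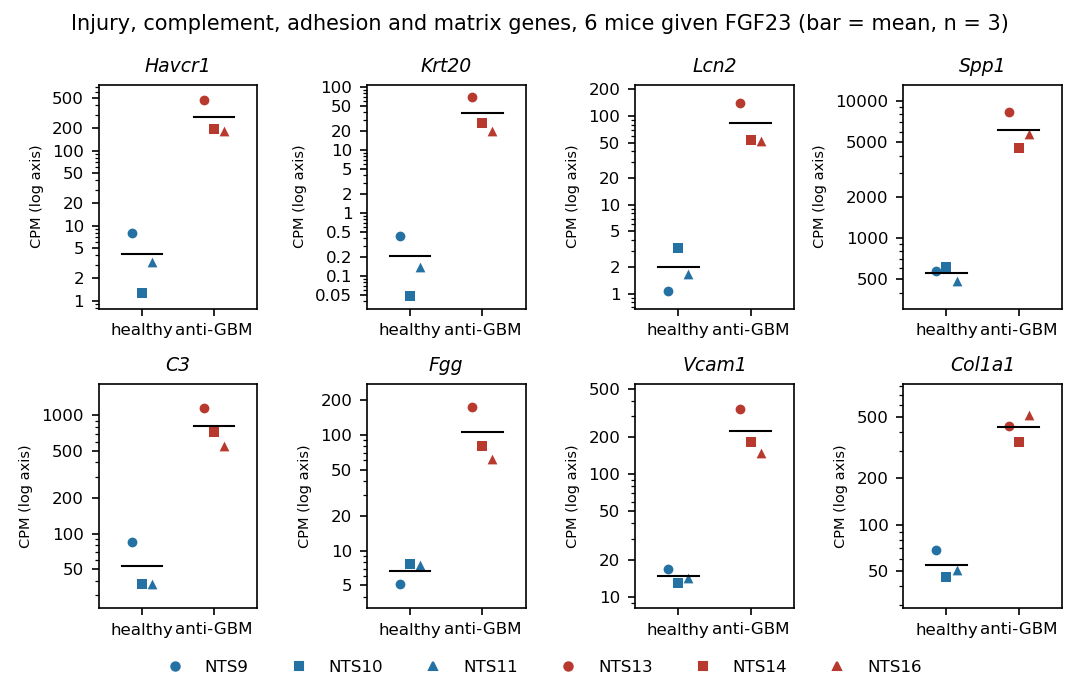
CPM per mouse on log axes for Havcr1, Krt20, Lcn2, Spp1, C3, Fgg, Vcam1 and Col1a1 in the 3 healthy (blue) and 3 anti-GBM (red) mice given FGF23, each symbol being 1 mouse and each bar the group mean. No anti-GBM point falls within the healthy range in any of the 8 panels, and NTS13 is the highest mouse in all but that of Col1a1.

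NTS13 was the extreme mouse of its group well beyond injury genes. It was the highest of the 3 anti-GBM mice in 1211 of the 2299 genes that rose (52.7%) and in 27 of the 30 injury genes that rose, and the lowest in 1153 of the 2011 genes that fell (57.3%). The injury list nevertheless did not need this mouse, since 28 members were called without it. By contrast NTS16 was the highest anti-GBM mouse in 13 of the 17 collagen genes that rose, and NTS14 in 13 of the 25 macrophage genes that rose.

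Acute phase and coagulation genes rose in 14 of 20 tested members, with none falling and a median of 1.71. Fgg, the fibrinogen gamma chain, was at 5.12, 7.598 and 7.46 CPM in healthy and 172, 80.4 and 61.1 CPM in anti-GBM kidneys (log2 fold change 3.97 ± 0.66, adjusted p 0.000677, ENSMUSG00000033860, GRCm38 chromosome 3, 83007724 to 83015049). Fgb, the beta chain, was at 0.469, 1.15 and 0.836 against 23.5, 10.6 and 8.61 CPM (log2 fold change 4.11 ± 1.15, adjusted p 0.0164, adjusted p 0.0682 without NTS9, 0.0532 without NTS11 and 0.06 without NTS13), and both chains were highest in NTS13. Saa1, a serum amyloid gene with near-identical copies, had no count in any healthy mouse and 66, 15 and 20 counts in anti-GBM mice, which makes it at least 9.95-fold higher when 3 counts per library are taken as the floor. Thbd, the endothelial anticoagulant thrombomodulin, was at 31.6, 26.6 and 27.2 against 47.4, 51.8 and 54.1 CPM (log2 fold change 0.84 ± 0.10, adjusted p 6.23e-05). Hp, encoding haptoglobin, had its highest level in NTS9, the mouse with adipocyte RNA, at 20.5 CPM, and did not pass the test.

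Promoters are shown for 3 acute phase genes that rose, to set the sequence of the start region beside the values. They are the called members with the smallest p among those in the RefSeq table of the GRCm38.p6 build, which held 9 of the 14. Lbp and Thbd were among the members with no entry. Each line gives the 250 bases before the start of transcription, 5′ to 3′ on the strand of the gene, where capitals would mark a match to TTCCNGGAA (STAT) or TTGCGCAA (C/EBP) on either strand, and none of these 3 windows held one. Of 32851 promoters of this length, 0.913% held the STAT and 0.164% the C/EBP letters. Only these exact letters were searched, so a site of another spelling would have been missed. Whether the windows hold such sites was not tested.
Fgg, chr3:83007474-83007723, plus strand: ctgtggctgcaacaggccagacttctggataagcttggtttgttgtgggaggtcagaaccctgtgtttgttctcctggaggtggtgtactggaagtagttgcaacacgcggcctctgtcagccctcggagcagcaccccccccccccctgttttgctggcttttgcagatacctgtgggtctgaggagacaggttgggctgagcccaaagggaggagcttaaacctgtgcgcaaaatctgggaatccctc
Plaur, chr7:24462233-24462482, plus strand: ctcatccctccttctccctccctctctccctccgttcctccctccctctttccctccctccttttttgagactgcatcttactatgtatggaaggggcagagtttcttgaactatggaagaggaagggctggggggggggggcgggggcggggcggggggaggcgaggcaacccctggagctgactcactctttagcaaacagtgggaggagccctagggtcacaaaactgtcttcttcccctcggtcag
Serpina3g, chr12:104235897-104236146, plus strand: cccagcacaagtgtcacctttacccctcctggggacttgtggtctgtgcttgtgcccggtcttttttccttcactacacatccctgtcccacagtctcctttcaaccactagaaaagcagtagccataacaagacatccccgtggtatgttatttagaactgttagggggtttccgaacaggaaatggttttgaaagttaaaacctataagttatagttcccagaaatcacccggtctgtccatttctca
Plaur, the urokinase receptor, and Serpina3g, an intracellular serpin, were at 2.77, 5.34 and 3.69 against 13.7, 9.86 and 10.99 CPM and 1.502, 0.866 and 2.23 against 5.48, 5.05 and 7.18 CPM, with no overlap between the groups in either gene.

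Complement genes rose in 20 of 27 members and fell in 2 (median 1.72). C3, the central component, was at 85.2, 37.7 and 37.6 CPM in healthy and 1158, 717 and 547 CPM in anti-GBM kidneys (log2 fold change 3.91 ± 0.61, adjusted p 0.000437, ENSMUSG00000024164, GRCm38 chromosome 17, 57203970 to 57228136). Hc, which encodes C5, had 1, 1 and 2 counts in healthy and 66, 18 and 23 counts in anti-GBM mice. The 3 chains of C1q, made mostly by macrophages, rose by 2.04, 2.08 and 2.12 on the log2 scale. Cfb, a factor of the alternative pathway, and Cd55, an inhibitor of complement activation on cells, were the members that fell, by 0.47 and 0.67 on the log2 scale, although both calls were lost in several fits without a mouse (adjusted p 0.175 without NTS9, 0.0587 without NTS10, 0.0849 without NTS11, 0.099 without NTS14 and 0.149 without NTS16 for Cfb, adjusted p 0.123 without NTS9, 0.111 without NTS11, 0.103 without NTS13 and 0.0671 without NTS14 for Cd55). Cfd, an adipocyte product, was 47.3 CPM in NTS9 and did not pass the test. C4b rose by 2.01 while its near-identical copy C4a, at a log2 fold change of -0.99, did not pass, and how reads were divided between the copies is not given in the sources used here.

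Macrophage and monocyte genes had the highest median of all lists, 2.07, with 25 of 29 members rising and none falling. Ctss, a lysosomal protease of antigen-presenting cells, was at 19.9, 14.6 and 15.7 CPM in healthy and 98.1, 105 and 95.5 CPM in anti-GBM kidneys (log2 fold change 2.57 ± 0.23, adjusted p 7.06e-06). Fcgr1, the high-affinity receptor for IgG, was at 1.64, 0.962 and 1.67 against 14.2, 10.7 and 10.4 CPM (log2 fold change 3.05 ± 0.33, adjusted p 2.46e-05), and Ms4a6c, a membrane protein of monocytes, at 2.49, 1.25 and 2.79 against 16.4, 17.8 and 16.4 CPM (log2 fold change 2.97 ± 0.30, adjusted p 1.69e-05). The pan-macrophage marker Adgre1 was at 8.64, 5.67 and 5.57 against 24.9, 29.1 and 23.6 CPM (log2 fold change 1.96 ± 0.30, adjusted p 0.000366), with the anti-GBM mice close to each other. Csf1r, the receptor for colony-stimulating factor 1 and the member with the most counts, was at 66.6, 57.5 and 96.1 CPM in healthy mice and at 94.9 CPM in NTS13, 98.5 CPM in NTS14 and slightly above both in NTS16, and did not pass (adjusted p 0.175, and 0.0478 without NTS11). Ptprc, which marks all leukocytes, was at 13.9, 10.9 and 16.9 against 35.4, 38.9 and 33.8 CPM (log2 fold change 1.38 ± 0.25, adjusted p 0.00133).

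Chemokine and receptor genes rose in 20 of 30 members and none fell (median 1.69), and with a minimum of 10 counts in every library 10 of 15 were called. Ccl2, which draws monocytes, was at 0.657, 0.385 and 0.557 CPM in healthy and 19.7, 8.76 and 6.54 CPM in anti-GBM kidneys (log2 fold change 4.44 ± 0.50, adjusted p 3.55e-05). The neutrophil attractants Cxcl1 and Cxcl2 were at 1.13, 0.385 and 0.697 against 22.5, 7.11 and 25.9 CPM and at 0.141, 0.0962 and 0.139 against 4.61, 2.35 and 3.32 CPM, log2 fold changes of 4.63 and 4.71. Cxcl5, another member of that family, had 2, 0 and 0 counts against 20, 10 and 9. Cxcl12, the member with the most counts, was at 159, 293 and 226 against 202, 246 and 219 CPM, groups that overlapped. Among NF-kB targets and inflammatory cytokines 25 of 30 rose (median 1.53). Vcam1, an adhesion molecule also made by injured tubule cells, was at 17.1, 13.1 and 14.4 against 342, 182 and 150.1 CPM (log2 fold change 3.92 ± 0.27, adjusted p 2.08e-06, ENSMUSG00000027962, GRCm38 chromosome 3, 116109949 to 116129688). Il1rn, the interleukin-1 receptor antagonist, was at 0.188, 0.192 and 0.279 against 12.3, 7.06 and 3.91 CPM (log2 fold change 5.14 ± 0.60, adjusted p 4.7e-05), and Lif, a cytokine of the interleukin-6 family, at 0.563, 0.337 and 0.766 against 14.8, 5.76 and 5.35 CPM (log2 fold change 3.99 ± 0.53, adjusted p 0.000143). In these 3 genes NTS13 was the highest mouse.

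Neutrophil genes had few counts. Of the 10 members tested 5 rose, with a median of 1.55, and with a minimum of 10 counts in every library both members left were called. S100a8 had 3, 1 and 1 counts in healthy and 28, 22 and 11 counts in anti-GBM kidneys, and Csf3r, the receptor for granulocyte colony-stimulating factor, was at 0.610, 0.721 and 1.95 against 4.13, 5.205 and 4.16 CPM (log2 fold change 2.10 ± 0.43, adjusted p 0.00268). Of T and NK cell genes, 9 of 22 rose and none fell (median 0.99). Cd4, the co-receptor of helper T cells, was at 1.13, 1.35 and 1.95 against 4.04, 4.904 and 4.802 CPM (log2 fold change 1.65 ± 0.39, adjusted p 0.00654), whereas the T cell receptor subunits Cd3d, Cd3e and Cd3g had log2 fold changes of 0.95, 0.90 and 1.11 and did not pass. This count was 5 without NTS9 and 4 without NTS10, NTS14 or NTS16. Among B and plasma cell genes, Cd79a, a subunit of the B cell receptor, fell from 21, 12 and 15 counts to 1, 3 and 5 counts (log2 fold change -2.49 ± 0.50, adjusted p 0.00247). Ighd, the heavy chain of IgD, also fell, by 1.92 on the log2 scale (adjusted p 0.0563 without NTS9, 0.0875 without NTS11, 0.0789 without NTS13 and 0.0913 without NTS14). Igha and Jchain of IgA-producing plasma cells rose by 1.99 and 1.42 with NTS14 the highest mouse in both, and were not called without it (adjusted p 0.0515 and 0.127). The call of Jchain was lost in other fits too (adjusted p 0.0529 without NTS9, 0.0507 without NTS10 and 0.0744 without NTS11). In this list 5 of 11 genes rose and 3 fell (median 0.52), and 3 rose without NTS14.

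MHC class II genes rose in 10 of 14 members (median 1.96). Cd74, the invariant chain, was at 292, 214 and 309 CPM in healthy and 1155, 1339 and 1231 CPM in anti-GBM kidneys (log2 fold change 2.19 ± 0.21, adjusted p 1.26e-05), and H2-DMb2, which helps load peptides, at 1.78, 1.15 and 3.21 against 16.2, 15.5 and 12.8 CPM (log2 fold change 2.90 ± 0.31, adjusted p 2.31e-05). NTS10, the healthy mouse with the most collecting duct RNA, had the lowest level among healthy mice for all 10 members that rose. Class I loading and immunoproteasome genes rose in 17 of 21 members, by less (median 0.84). Psmb8, a catalytic subunit of the immunoproteasome, was at 12.5, 10.1 and 11.5 against 36.6, 40.3 and 33.4 CPM (log2 fold change 1.70 ± 0.10, adjusted p 8.48e-07), and Nlrc5, which switches on class I genes, at 5.82, 4.28 and 8.01 against 23.5, 19.1 and 20.4 CPM (log2 fold change 1.81 ± 0.24, adjusted p 0.000145). Tap1, a peptide transporter, was at 16.01, 13.4 and 17.8 against 49.97, 49.4 and 41.4 CPM (log2 fold change 1.58 ± 0.14, adjusted p 5.52e-06). The H2-Q genes are near-identical copies, so their shares of the reads are uncertain.

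Interferon-gamma response genes rose in 31 of 34 members under FGF23, with a median of 1.52, while in vehicle mice 9 rose and 5 fell, with a median of 0.18. Irf1, a transcription factor induced by interferon-gamma, was at 21.7, 20.6 and 20.1 CPM in healthy and 66.1, 69.1 and 48.1 CPM in anti-GBM kidneys under FGF23 (log2 fold change 1.55 ± 0.16, adjusted p 2.11e-05, ENSMUSG00000018899, GRCm38 chromosome 11, 53770014 to 53778374). Its log2 fold change without FGF23 was 0.22 (adjusted p 0.223). Irgm1, a guanosine triphosphatase of cell-autonomous defence, was at 68.2, 46.6 and 57.9 against 174, 176 and 119 CPM (log2 fold change 1.44 ± 0.18, adjusted p 7.22e-05). Neither gene had an anti-GBM mouse within the healthy range. Ubd, a ubiquitin-like protein, had the largest rise of the list, at 1.22, 0.817 and 1.05 against 23.7, 14.2 and 10 CPM (log2 fold change 3.95 ± 0.42, adjusted p 2.33e-05), and Cxcl10, which draws T cells, was at 4.74, 2.21 and 5.99 against 44.01, 25.3 and 21.4 CPM (log2 fold change 2.83 ± 0.35, adjusted p 8.38e-05). The log2 fold change was larger with FGF23 than with vehicle in 33 of the 34 members, all but Serpina3g, and in 31 of 31 type I interferon genes, but in 8 of 35 injury genes. The share over all genes was not counted, and the lists were chosen with earlier results of these data known. Cxcl9, Socs1 and Nos2 did not pass the test, with log2 fold changes of 0.38, 1.05 and -0.24. Without NTS9, which had adipocyte RNA, 30 members were called, and 29 without NTS10, which was the lowest healthy mouse in 28 of the 31 members that rose.

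The difference between the disease effects with and without FGF23 passed the test for 5 genes, all higher (0.0315% of genes), and for none that were lower (0%). All 5 belonged to the interferon-gamma list, whose members were chosen with earlier results of these data known, so this is no independent support. At an unadjusted p below 0.05 the difference was found for 1316 genes, and DESeq2 called 39 higher and 5 lower. They included Tgtp1, Tgtp2, Iigp1 and Cd274, with differences of 2.92 ± 0.41, 2.36 ± 0.34, 2.39 ± 0.37 and 1.40 ± 0.20 (SE) on the log2 scale. Tgtp1 and Tgtp2, T cell guanosine triphosphatases whose near-identical copies make the split of reads uncertain, were at 4.46, 3.75 and 4.95 against 27.5, 27.4 and 16.9 CPM and 6.15, 3.51 and 4.25 against 12.6, 19.1 and 11.8 CPM under FGF23. Iigp1, an immunity-related guanosine triphosphatase, was at 21.8, 11.5 and 19.9 against 45.5, 62.5 and 42.5 CPM. In all 3 genes the disease effect with vehicle was below 0, at -0.47, -0.72 and -0.89. Cd274, the checkpoint ligand PD-L1, was at 7.42, 6.01 and 7.32 against 8.89, 11.6 and 8.96 CPM (log2 fold change 0.50 ± 0.15, adjusted p 0.02, adjusted p 0.0812 without NTS10 and 0.0955 without NTS14). Leaving out single mice brought the number of higher genes to 0 in 11 of 14 cases, 1 without NTS2, 7 without NTS1 and 12 without NTS16, so these calls lay near the threshold.

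**Figure D3:**
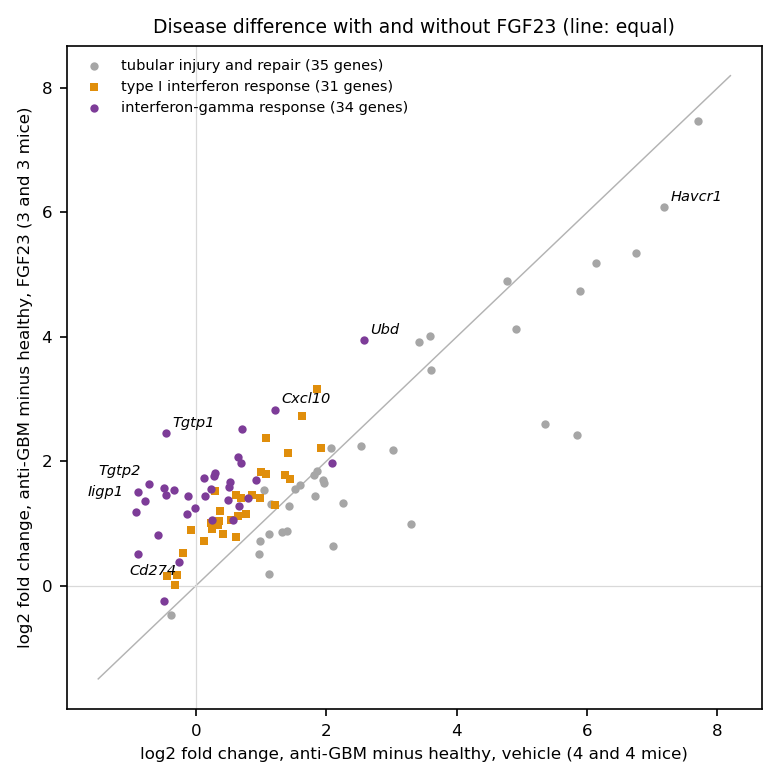
Disease effect with FGF23 (vertical axis, 3 against 3 mice) against disease effect with vehicle (horizontal axis, 4 against 4 mice), both as log2 fold changes, 1 point per gene of the interferon-gamma, type I interferon and tubular injury lists, with the line of equal effects. Of the 34 interferon-gamma genes 33 lie above the line, Tgtp1, Tgtp2, Iigp1 and Cd274 lie above 0 with FGF23 and below 0 with vehicle, and injury genes such as Havcr1 lie near or below the line.

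Across all genes, 1825 rose in both comparisons, which is 79.4% of the genes that rose under FGF23 and 59.3% of the 3076 (19.4%) that rose under vehicle. Likewise 1549 fell in both, 77.0% of those under FGF23 and 48.0% of the 3228 (20.4%) under vehicle. The direction under vehicle was the same for 97.3% of the genes that rose and 98.4% of those that fell. Only 9 genes were called in opposite directions. Cd274, Gbp4, Gbp9, Iigp1 and Tgtp2 of the interferon-gamma list and Creb1, Lrch3 and Mtmr4 rose with FGF23 and fell with vehicle, and G6pc fell with FGF23 and rose with vehicle. Gbp4, Gbp9, Creb1, Lrch3 and Mtmr4 were named after their values were seen. Gbp4 and Gbp9, guanylate-binding proteins of cell-autonomous defence, had log2 fold changes of 1.18 and 0.82 with FGF23 and -0.92 and -0.58 with vehicle, and their differences between treatments did not pass (adjusted p 0.0538 and 0.0683).

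Type I interferon genes rose in 26 of 31 members (median 1.19, and 0.62 with vehicle). Oas3, a sensor of double-stranded RNA, was at 0.516, 0.289 and 0.906 CPM in healthy and 5.43, 4.05 and 5.396 CPM in anti-GBM kidneys (log2 fold change 3.17 ± 0.37, adjusted p 5.24e-05), and Zbp1, a sensor of Z-form nucleic acid, at 2.11, 1.78 and 3.21 against 13.4, 11.6 and 11.5 CPM (log2 fold change 2.38 ± 0.27, adjusted p 4.23e-05). Parp14, the member with the most counts, was at 18.9, 23.5 and 22.5 against 77.3, 61.1 and 47.9 CPM (log2 fold change 1.52 ± 0.20, adjusted p 0.00011). NTS13 was the highest mouse in 22 of the 26 members that rose, whereas in the interferon-gamma list NTS14 was the highest in 16 of 31 and NTS13 in 13. Rsad2, Ifi44 and Cmpk2, which are typical members of the list, had log2 fold changes of 0.00, 0.17 and 0.15 and did not pass.

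Collagen genes rose in 17 of 20 members with a median of 1.52, and the exceptions were Col4a3, Col4a4 and Col4a5, the chains of the mature glomerular basement membrane, at log2 fold changes of -0.17, -0.26 and -0.04. Col1a1, a chain of fibrillar collagen, was at 68.02, 46.02 and 50.9 CPM in healthy and 440.4, 343 and 515 CPM in anti-GBM kidneys (log2 fold change 2.98 ± 0.22, adjusted p 3.04e-06, ENSMUSG00000001506, GRCm38 chromosome 11, 94936224 to 94953042). Col3a1 was at 110.0, 61.2 and 73.4 against 539.9, 427 and 663 CPM (log2 fold change 2.74 ± 0.30, adjusted p 2.57e-05). Col4a1, a basement membrane chain of most tissues and the member with the most counts, was at 328, 256 and 304 against 854, 707 and 970.1 CPM (log2 fold change 1.51 ± 0.14, adjusted p 9.94e-06). NTS16 was the highest and NTS14 the lowest anti-GBM mouse in all 3 genes. Matrix and myofibroblast genes rose in 23 of 31 members (median 1.31). Fn1, the matrix glycoprotein fibronectin, was at 46.9, 43.95 and 45.1 against 275, 202 and 271 CPM (log2 fold change 2.46 ± 0.17, adjusted p 2.08e-06), and Mmp2, a protease that cuts type IV collagen, at 5.49, 6.01 and 5.505 against 31.4, 33.8 and 41.4 CPM (log2 fold change 2.64 ± 0.25, adjusted p 1.22e-05). Pdgfrb, a receptor of pericytes and fibroblasts, was at 60.8, 63.7 and 59.2 against 139, 129 and 111 CPM (log2 fold change 1.04 ± 0.12, adjusted p 3.17e-05).

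Laminins and integrins changed less, 13 of 24 rising and 1 falling (median 0.51). Itgb3, part of the vitronectin receptor, was at 2.11, 1.59 and 1.81 against 6.29, 6.26 and 6.14 CPM (log2 fold change 1.76 ± 0.29, adjusted p 0.000593), and Itga6, part of a laminin receptor, at 79.4, 56.98 and 74.9 against 227, 182 and 109 CPM (log2 fold change 1.29 ± 0.29, adjusted p 0.00456). Itgb2 of leukocytes rose by 1.59. The member that fell, Lama1, a laminin chain of tubular basement membranes, did so by 0.58 (adjusted p 0.144 without NTS9, 0.0693 without NTS13 and 0.104 without NTS16). Cell cycle genes rose in 20 of 29 members (median 1.57). Mki67, a marker of dividing cells, was at 7.23, 3.703 and 5.85 CPM in healthy and 34.6, 16.2 and 24.2 CPM in anti-GBM kidneys (log2 fold change 2.16 ± 0.52, adjusted p 0.00748), Top2a, a topoisomerase of dividing cells, at 5.63, 2.79 and 3.902 against 28.97, 12.9 and 19.2 CPM (log2 fold change 2.30 ± 0.51, adjusted p 0.00448). NTS13 was the highest anti-GBM mouse in 17 of the 20 and NTS14 the lowest in 17. Ccnd1, the member with the most counts, was at 272, 247 and 230.1 against 158, 204 and 219.6 CPM and did not pass. The count was 9 without NTS10, 10 without NTS11 and 8 without NTS13. Of p53 and senescence genes 6 of 17 rose and 1 fell (median 0.28). Cdkn1a, the cell cycle inhibitor p21, was at 6.901, 5.24 and 5.92 against 32.05, 18.2 and 31.5 CPM (log2 fold change 2.18 ± 0.39, adjusted p 0.0012), and Eda2r, a receptor induced by p53, at 0.657, 0.481 and 0.906 against 2.11, 1.85 and 1.88 CPM (log2 fold change 1.54 ± 0.30, adjusted p 0.00228). Ccng1, another p53 target, fell by 0.39 (adjusted p 0.126 without NTS9, 0.104 without NTS11, 0.0725 without NTS13 and 0.0833 without NTS14).

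Podocyte genes moved little as a group, 3 of 21 rising and none falling (median -0.05), where 14.5% of all genes rose and 12.7% fell. Nphs1, the slit diaphragm gene nephrin, was at 37.7, 30.5 and 32.9 against 23.2, 34.9 and 39.5 CPM. The groups overlapped and NTS13 was the lowest mouse. Its log2 fold change of -0.05 ± 0.19 (SE) became positive without NTS9 or without NTS13, at 0.05 and 0.15. Kirrel, another slit diaphragm gene, was at 19.8, 23.3 and 16.6 against 40.5, 39.99 and 42.8 CPM (log2 fold change 1.04 ± 0.13, adjusted p 6.04e-05), and Nes, which encodes the intermediate filament nestin, at 39.4, 38.4 and 39.4 against 91.00, 63.4 and 66.7 CPM (log2 fold change 0.91 ± 0.17, adjusted p 0.00146). The third member that rose was Tcf21, a transcription factor of podocytes and interstitial cells (log2 fold change 0.78 ± 0.18, adjusted p 0.00666). Of endothelial genes 1 of 22 rose and 2 fell (median -0.19). Kdr, the VEGF receptor of capillaries, was at 110.1, 103 and 100.1 against 61.5, 72.7 and 76.6 CPM (log2 fold change -0.57 ± 0.10, adjusted p 0.000855), and Igfbp3 at 459, 406 and 338 against 114, 166 and 261 CPM (log2 fold change -1.16 ± 0.25, adjusted p 0.00407). The general markers Pecam1, Cdh5 and Emcn had log2 fold changes of -0.34, -0.26 and -0.27 and did not pass.

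Of genes of proximal tubule endocytosis and identity, 12 of 30 fell and none rose, with a median of -0.47. Slc6a19, the main neutral amino acid transporter of the brush border, fell most, from 472, 634 and 467 to 119.6, 149.7 and 239 CPM (log2 fold change -1.63 ± 0.31, adjusted p 0.00163, ENSMUSG00000021565, GRCm38 chromosome 13, 73679745 to 73704865). Slc6a20b, a transporter of the same gene family, was at 319, 258 and 297 against 129.6, 171 and 174 CPM (log2 fold change -0.88 ± 0.13, adjusted p 0.000363). Every healthy mouse was above every anti-GBM mouse in both, and NTS13 was the lowest. Lrp2, the endocytic receptor megalin, was at 1952, 1761 and 1956 against 1197, 1268 and 1611 CPM without overlap, yet did not pass the test (log2 fold change -0.48 ± 0.20, adjusted p 0.0925). Hnf4a, a transcription factor that holds proximal tubule identity, fell by 0.47 on the log2 scale. Acsm2, an acyl-CoA synthetase, fell by 0.90 (adjusted p 0.0714 without NTS9, 0.0583 without NTS11, 0.0822 without NTS13 and 0.0503 without NTS14). NTS13 was the lowest mouse in 10 of the 12 members that fell, and 7 were called without it.

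The promoters of 3 proximal tubule genes that fell are shown in the same way, chosen as the called members of smallest p in the RefSeq table, which held 11 of the 12. Capitals mark a match on either strand to CAAAGTCCA (HNF4), which 0.384% of the 32851 promoters held. Starts are those of RefSeq and can differ from the span of a gene in the annotation, so that the window of Slc6a19 lies within the span given above.
Slc6a20b, chr9:123632539-123632788, minus strand: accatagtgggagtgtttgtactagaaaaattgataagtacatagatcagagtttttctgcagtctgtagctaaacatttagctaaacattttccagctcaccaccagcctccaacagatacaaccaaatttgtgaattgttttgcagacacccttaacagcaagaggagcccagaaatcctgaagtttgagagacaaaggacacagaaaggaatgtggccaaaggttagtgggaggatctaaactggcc
Slc6a19, chr13:73692637-73692886, minus strand: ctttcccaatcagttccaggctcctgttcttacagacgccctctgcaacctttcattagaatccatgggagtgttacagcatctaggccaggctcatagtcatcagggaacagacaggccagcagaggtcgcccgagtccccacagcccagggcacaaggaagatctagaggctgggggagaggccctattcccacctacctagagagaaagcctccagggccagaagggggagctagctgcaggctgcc
Slc3a1, chr17:85028097-85028346, plus strand: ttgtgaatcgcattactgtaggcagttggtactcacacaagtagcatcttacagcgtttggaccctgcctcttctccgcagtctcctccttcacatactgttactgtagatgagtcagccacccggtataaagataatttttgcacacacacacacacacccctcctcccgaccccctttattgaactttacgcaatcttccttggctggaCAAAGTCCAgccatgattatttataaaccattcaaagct
Only the window of Slc3a1, which encodes the heavy subunit of the cystine transporter, held a match, to the HNF4 letters. Here too, sites of another spelling were not searched. Slc3a1 was at 804, 789 and 979.9 against 529, 578 and 554 CPM (log2 fold change -0.63 ± 0.14, adjusted p 0.00405).

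Organic anion and cation transporters, which secrete drugs and take back urate, had the lowest list median, -0.64, with 15 of 27 falling and none rising. Slc22a12, the urate transporter of the brush border, was at 2576, 1732 and 2696 CPM in healthy and 1114, 1287 and 1270.4 CPM in anti-GBM kidneys (log2 fold change -0.93 ± 0.20, adjusted p 0.00317). Slc22a4, a carrier of organic cations, was at 63.5, 60.7 and 70.6 against 29.1, 30.7 and 35.8 CPM (log2 fold change -1.02 ± 0.18, adjusted p 0.000856). Slco1a1, an organic anion carrier, had the lowest log2 fold change of the list, -1.92 ± 0.71 (SE), and did not pass. Some Slc22a members are close paralogs whose reads may be shared. The count was 7 without NTS9 and 8 without NTS11 or NTS13.

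Fatty acid oxidation genes fell in 16 of 29 members and none rose (median -0.41, and -0.19 with vehicle). Ehhadh, a peroxisomal enzyme, was at 1210.4, 739 and 1129.6 CPM in healthy and 552, 601 and 457 CPM in anti-GBM kidneys (log2 fold change -0.94 ± 0.22, adjusted p 0.0064). Acot12, an acetyl-CoA thioesterase, was at 278, 200.1 and 285 against 160.4, 139.7 and 123 CPM (log2 fold change -0.85 ± 0.19, adjusted p 0.00455), and Cyp4b1, a fatty acid hydroxylase, at 3823, 3178 and 2754 against 1373, 1475 and 1419 CPM (log2 fold change -1.19 ± 0.24, adjusted p 0.00279). Ppara, the nuclear receptor that switches on this pathway, fell by 0.74. NTS9 was the highest healthy mouse in 15 of the 16 members that fell, and without it 8 were called, and 9 without NTS13. Genes of oxidative phosphorylation fell in 5 of 30 members (median -0.18), where 12.7% of all genes fell. All 30 had their highest healthy level in NTS9 and their lowest anti-GBM level in NTS13. Ndufs1 of complex I and Sdha of complex II fell by 0.47 and 0.42 on the log2 scale. That count was 2 without NTS9, NTS13 or NTS14, 3 without NTS11 and 9 without NTS16.

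Among genes of gluconeogenesis and glucose transport 5 of 22 rose and 3 fell (median -0.01), against 14.5% and 12.7% of all genes. G6pc, glucose-6-phosphatase, fell from 338, 426 and 392.2 to 191, 277 and 238 CPM (log2 fold change -0.71 ± 0.23, adjusted p 0.0362), while its log2 fold change with vehicle was 0.76 (adjusted p 0.00887). The difference between these effects did not pass (-1.47 ± 0.31 (SE), adjusted p 0.162), and neither did the fall under FGF23 in 5 of 6 fits without a mouse (adjusted p 0.0512 without NTS9, 0.0964 without NTS10, 0.0986 without NTS11, 0.149 without NTS13 and 0.0778 without NTS16). Pcx, pyruvate carboxylase, was at 1033, 841 and 819.5 against 575, 657 and 565 CPM (log2 fold change -0.58 ± 0.13, adjusted p 0.00566). Hk2, a hexokinase of glycolysis, was at 2.07, 0.481 and 0.766 against 9.56, 6.51 and 6.83 CPM (log2 fold change 2.75 ± 0.47, adjusted p 0.000868), and Pfkp, a phosphofructokinase, at 31.2, 45.4 and 46.5 against 102.3, 82.8 and 76.6 CPM (log2 fold change 1.09 ± 0.21, adjusted p 0.00209). Pck1, which makes phosphoenolpyruvate, rose by 0.86 (adjusted p 0.159 without NTS10, 0.0957 without NTS11, 0.0637 without NTS13, 0.0961 without NTS14 and 0.119 without NTS16). The number that rose was 3 without NTS11, NTS14 or NTS16.

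**Figure D4:**
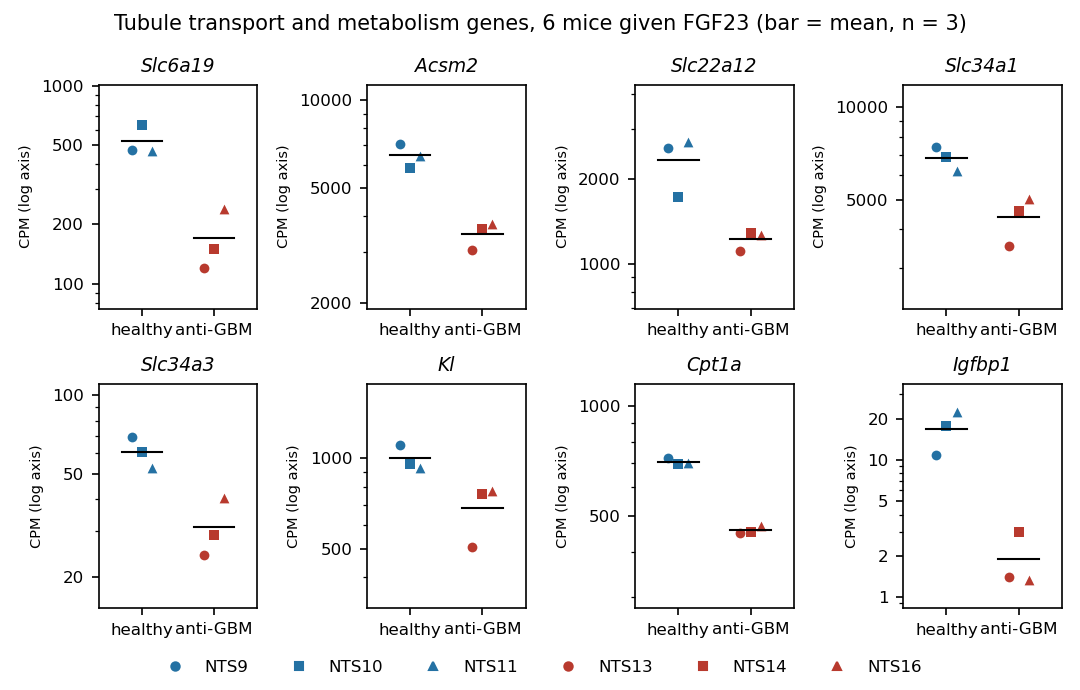
CPM per mouse on log axes for Slc6a19, Acsm2, Slc22a12, Slc34a1, Slc34a3, Kl, Cpt1a and Igfbp1 in the 3 healthy (blue) and 3 anti-GBM (red) mice given FGF23, each symbol being 1 mouse and each bar the group mean. The anti-GBM mice are below the healthy mice in all 8 panels, although Kl did not pass the test.

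Phosphate transport and vitamin D genes, on which FGF23 acts, fell in 6 of 17 members and rose in 3. Slc34a1, the main sodium-phosphate cotransporter of the proximal tubule, was at 7405, 6856 and 6176 CPM in healthy and 3528, 4594 and 5038 CPM in anti-GBM kidneys (log2 fold change -0.64 ± 0.20, adjusted p 0.0323, ENSMUSG00000021490, GRCm38 chromosome 13, 55398187 to 55415592). Its groups did not overlap, but the call depended on several mice (adjusted p 0.106 without NTS9, 0.0641 without NTS10, 0.0563 without NTS11, 0.137 without NTS13 and 0.0648 without NTS14). Slc34a3, another such cotransporter, was at 69.3, 60.8 and 52.5 against 24.4, 29.1 and 40.4 CPM (log2 fold change -0.96 ± 0.20, adjusted p 0.00282). Slc34a2, a cotransporter better known from lung and gut, rose from 4.41, 3.32 and 6.34 to 22.8, 14.7 and 16.98 CPM (log2 fold change 1.97 ± 0.45, adjusted p 0.00579). Slc20a1 rose and Slc20a2 fell, log2 fold changes of 1.12 and -0.38 for these related phosphate carriers. Cyp24a1, which breaks down active vitamin D, was at 134, 17.02 and 45.6 against 14.7, 9.61 and 78.1 CPM, with wide spread in both groups (log2 fold change -0.95 ± 0.89, adjusted p 0.469), and its log2 fold change became 0.15 without NTS9. Cyp27b1, which makes active vitamin D, was at 10.3, 6.73 and 6.13 against 14.8, 15.3 and 23.96 CPM and did not pass (log2 fold change 1.21 ± 0.50, adjusted p 0.0849), although a fit of the 6 mice alone gave an adjusted p of 0.00728. Vdr, the vitamin D receptor, fell by 0.58 (adjusted p 0.0554 without NTS9, 0.0661 without NTS11 and 0.0582 without NTS13), and Gc, the vitamin D binding protein, was at 14.1, 19.2 and 14.3 against 141, 77.7 and 87.6 CPM (log2 fold change 2.68 ± 0.51, adjusted p 0.00182). The number that fell was 2 without NTS9 or NTS13 and 3 without NTS11.

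Kl, which encodes Klotho, was at 1111, 962 and 928 CPM in healthy and 506, 760.3 and 780.5 CPM in anti-GBM kidneys (ENSMUSG00000058488, GRCm38 chromosome 5, 150952607 to 150993817). All anti-GBM mice were below all healthy mice, NTS13 by the most. The log2 fold change of -0.55 ± 0.20 (SE) had an adjusted p of 0.0571 and so did not pass, whereas DESeq2 gave 0.0305 and a fit of the 6 mice alone 0.0461. Among the receptors, Fgfr3 was at 60.6, 56.4 and 73.2 against 41.03, 42.3 and 35.9 CPM (log2 fold change -0.67 ± 0.13, adjusted p 0.0021), Fgfr1 at 75.5, 78.1 and 79.2 against 87.9, 87.3 and 83.5 CPM (log2 fold change 0.15 ± 0.06, adjusted p 0.0903) and Fgfr4 at 47.7, 44.7 and 55.3 against 47.5, 49.99 and 38.9 CPM (log2 fold change -0.11 ± 0.13, adjusted p 0.575). Only Fgfr3 of these fell. Among genes induced by the MAPK cascade below FGF receptors, Dusp5, a phosphatase of ERK, was at 1.88, 1.59 and 1.67 against 5.33, 3.25 and 8.71 CPM (log2 fold change 1.75 ± 0.37, adjusted p 0.00341), while Egr1, Fos, Dusp6, Spry2 and Spry4 overlapped between the groups and did not pass. Spred2, an inhibitor of the cascade, fell by 0.38 (adjusted p 0.055 without NTS9), and Etv5, a transcription factor of the same axis, by 0.79 (adjusted p 0.105 without NTS9 and 0.0517 without NTS14). Etv4 and Fgf2 rose, by 2.10 and 1.13 (adjusted p 0.0745 without NTS10, 0.0755 without NTS11, 0.0646 without NTS13, 0.0602 without NTS14 and 0.0735 without NTS16 for Etv4, adjusted p 0.0603 without NTS11 for Fgf2). In all, 3 of the 21 receptor and feedback genes rose and 3 fell, shares near those of all genes (14.5% and 12.7%).

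Genes of the loop of Henle and distal sodium transport rose in 4 of 25 members and fell in 2, where 14.5% of all genes rose and 12.7% fell. Umod, the loop marker uromodulin, was at 3286, 3047 and 4445 CPM in healthy and 4328, 3660.2 and 4360.2 CPM in anti-GBM kidneys and overlapped (log2 fold change 0.20 ± 0.38, adjusted p 0.744). Egf, made by the loop and distal tubule, fell from 1639, 1582 and 2016 to 722, 1072 and 1230.1 CPM (log2 fold change -0.79 ± 0.21, adjusted p 0.0129, adjusted p 0.066 without NTS11 and 0.0614 without NTS13). The sodium channel subunits Scnn1b and Scnn1g rose by 0.50 and 0.59, with Sgk1, the kinase that acts on them, and Hsd11b2 as the other members that rose. None of these 4 rises was called in all fits without a mouse, and 1, 0, 1 and 0 members rose without NTS9, NTS11, NTS14 and NTS16. Of calcium and magnesium genes 3 of 12 rose and 1 fell, against 14.5% and 12.7% of all genes. Trpv5, the distal calcium channel on which FGF23 acts, was at 21.6, 18.99 and 11.9 against 29.7, 40.2 and 39.7 CPM (log2 fold change 1.05 ± 0.27, adjusted p 0.0116), and Trpv6 at 1.46, 1.35 and 1.81 against 3.12, 2.75 and 3.17 CPM (log2 fold change 0.98 ± 0.23, adjusted p 0.00683). Cldn14, which restricts calcium reabsorption in the loop, had 1, 1 and 0 counts in healthy and 15, 8 and 6 counts in anti-GBM kidneys (adjusted p 0.0604 without NTS9, 0.0504 without NTS10, 0.062 without NTS11 and 0.0754 without NTS13). Trpm7, a magnesium channel, fell by 0.48, a call that no fit without a mouse kept (adjusted p up to 0.113).

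Of collecting duct and water channel genes, Hsd11b2 alone rose and Aqp3 and Aqp11 fell (20 tested). Aqp11, an intracellular aquaporin of the proximal tubule, was at 77.1, 66.3 and 70.2 against 36.7, 48.3 and 42.2 CPM (log2 fold change -0.75 ± 0.15, adjusted p 0.00242), and Aqp3, the basolateral water channel of principal cells, at 119, 148 and 102.1 against 69.5, 93.98 and 88.97 CPM (log2 fold change -0.55 ± 0.17, adjusted p 0.0266, adjusted p 0.0582 without NTS9, 0.117 without NTS10 and 0.127 without NTS13). The vasopressin-regulated channel Aqp2 was at 387 CPM in NTS10, 129 CPM in NTS11 and its lowest level in NTS9, against 196, 210.0 and 191 CPM, groups that overlapped. In the renin-angiotensin system Mas1, a receptor for angiotensin fragments, was at 2.39, 2.64 and 4.32 against 1.25, 0.901 and 0.941 CPM (log2 fold change -1.58 ± 0.30, adjusted p 0.00186). Agtr1a, the main angiotensin receptor, fell by 0.38 (adjusted p 0.138 without NTS9, 0.0878 without NTS10, 0.0826 without NTS11, 0.184 without NTS13 and 0.131 without NTS14), and Ren1 overlapped (log2 fold change 0.82, 11 genes tested).

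Genes of the unfolded protein and integrated stress responses rose in 14 of 22 members and fell in 1 (median 0.78). Atf3, a transcription factor of acute stress, was at 1.31, 1.11 and 0.906 CPM in healthy and 17.7, 8.16 and 20.2 CPM in anti-GBM kidneys (log2 fold change 3.77 ± 0.46, adjusted p 6.79e-05). Hspa5, the chaperone BiP of the endoplasmic reticulum, was at 366, 374 and 347 against 723, 689 and 1246 CPM (log2 fold change 1.29 ± 0.21, adjusted p 0.000598), and Asns, asparagine synthetase, at 3.896, 3.27 and 3.41 against 16.7, 9.56 and 8.02 CPM (log2 fold change 1.69 ± 0.31, adjusted p 0.0013). Hspa5 was highest in NTS16 and Asns in NTS13. The member that fell was Shmt2, an enzyme of mitochondrial folate metabolism, by 0.54 (adjusted p 0.0789 without NTS9, 0.0624 without NTS11 and 0.0762 without NTS13). Of erythroid and heme genes 4 of 18 rose and 1 fell, against 14.5% and 12.7% of all genes. Cp, the copper protein ceruloplasmin, was at 39.8, 57.6 and 49.3 against 302, 196 and 184 CPM (log2 fold change 2.22 ± 0.21, adjusted p 1.17e-05). Epo, the hormone that drives red cell formation, had 0, 0 and 1 counts in healthy and 23, 32 and 32 counts in anti-GBM kidneys (adjusted p 0.000952). The globin genes Hba-a1, Hba-a2, Hbb-bs and Hbb-bt overlapped between the groups and did not pass. Slc11a2, an iron transporter, fell by 0.61 (adjusted p 0.00464).

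Of insulin-like growth factor genes 3 of 10 fell and none rose, Igfbp1 by the most. Igfbp1, a binding protein induced in fasting and by low insulin in liver, was at 10.8, 17.6 and 22.4 CPM in healthy and 1.39, 3.003 and 1.34 CPM in anti-GBM kidneys under FGF23 (log2 fold change -3.14 ± 0.39, adjusted p 8.52e-05, ENSMUSG00000020429, GRCm38 chromosome 11, 7197782 to 7202546). With vehicle its log2 fold change was -0.39 (adjusted p 0.343), and the difference between the effects, -2.76 ± 0.50 (SE), did not pass (adjusted p 0.0717). Igfbp3 and Igfbp5 fell by 1.16 and 0.65 (adjusted p 0.0566 without NTS13 for Igfbp5).

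Circadian clock genes split in both directions, 5 of 18 rising and 5 falling, and NTS16 stood apart from the other anti-GBM mice. Nr1d1, a repressor of the clock, was at 105, 151 and 133 CPM in healthy and 9.47, 9.41 and 77.7 CPM in anti-GBM kidneys (log2 fold change -2.01 ± 0.63, adjusted p 0.0284). Dbp, a clock output factor, was at 216, 212 and 175 against 27.3, 29.3 and 133 CPM (log2 fold change -1.67 ± 0.56, adjusted p 0.041), and Arntl, which encodes the activator BMAL1, at 1.97, 1.78 and 2.86 against 7.83, 8.11 and 2.62 CPM (log2 fold change 1.504 ± 0.39, adjusted p 0.0112). In Nr1d1 and Dbp the value of NTS16 lay nearer to the healthy mice than to the other anti-GBM mice, and for Arntl it lay within the healthy range. Cry1 and Nfil3, repressors of clock targets, were at 2.49, 3.799 and 2.02 against 17.9, 20.1 and 7.38 CPM (log2 fold change 2.43 ± 0.36, adjusted p 0.000271) and 2.82, 2.12 and 3.27 against 15.5, 19.9 and 14.7 CPM (log2 fold change 2.62 ± 0.33, adjusted p 8.74e-05). Nfil3 was raised in all 3 anti-GBM mice alike. Ciart, a clock repressor, and Per1, which answers to both the clock and glucocorticoids, were picked after their values were seen, and were at 18.5, 11.7 and 12.3 against 1.06, 1.05 and 23.5 CPM and 34.9, 41.98 and 35.3 against 40.7, 34.8 and 174 CPM. The time of day at which each kidney was taken is not given in the sources used here. The calls of Nr1d1 and Dbp were lost in most fits without a mouse (adjusted p 0.0631 without NTS10, 0.0669 without NTS11, 0.097 without NTS13 and 0.0869 without NTS14 for Nr1d1, adjusted p 0.0926 without NTS9, 0.0771 without NTS10, 0.0731 without NTS11, 0.149 without NTS13 and 0.139 without NTS14 for Dbp). Without NTS16 both falls were larger, with log2 fold changes of -3.78 for Nr1d1 (adjusted p 3.75e-05) and -2.83 for Dbp (adjusted p 0.00143). Leaving NTS16 out kept the call of Arntl, whose adjusted p was 0.0511 without NTS13.

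Genes induced by glucocorticoids rose in 8 of 12 members (median 1.25, and 1.72 with vehicle). The other 4 did not pass, and the lowest log2 fold change of the list was -0.54. Klf9, among these 4, had a log2 fold change of -0.23 (adjusted p 0.357), and of -0.50 without NTS16 (adjusted p 0.0256). Zbtb16, a transcription factor used as a readout of the glucocorticoid receptor, was at 4.84, 3.13 and 2.16 against 18.4, 11.2 and 47.4 CPM (log2 fold change 2.90 ± 0.78, adjusted p 0.0134, adjusted p 0.0541 without NTS11 and 0.0634 without NTS16). Sgk1 was at 54.6, 103 and 33.1 against 101.7, 121 and 253 CPM (log2 fold change 1.32 ± 0.38, adjusted p 0.0192, adjusted p 0.0697 without NTS9, 0.0711 without NTS11 and 0.113 without NTS16), and NTS16 was the highest mouse in both. Of the 8 members that rose NTS16 was the highest in 6, and 5 were called without it or without NTS11. Cdkn1a and Lcn2 of this list also belong to the injury list. The 4 Y-linked genes measured as a control list gave no call under FGF23. The groups did not overlap in 3 of them, where they did not overlap for 45.4% of all genes. Ddx3y (log2 fold change -0.35, adjusted p 0.0581) passed in a fit of the 6 mice alone (adjusted p 0.0115). With vehicle, Ddx3y and Uty of these 4 were lower in anti-GBM mice, with log2 fold changes of -0.60 and -0.79 (adjusted p 0.0011 and 0.000494).

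**Figure D5:**
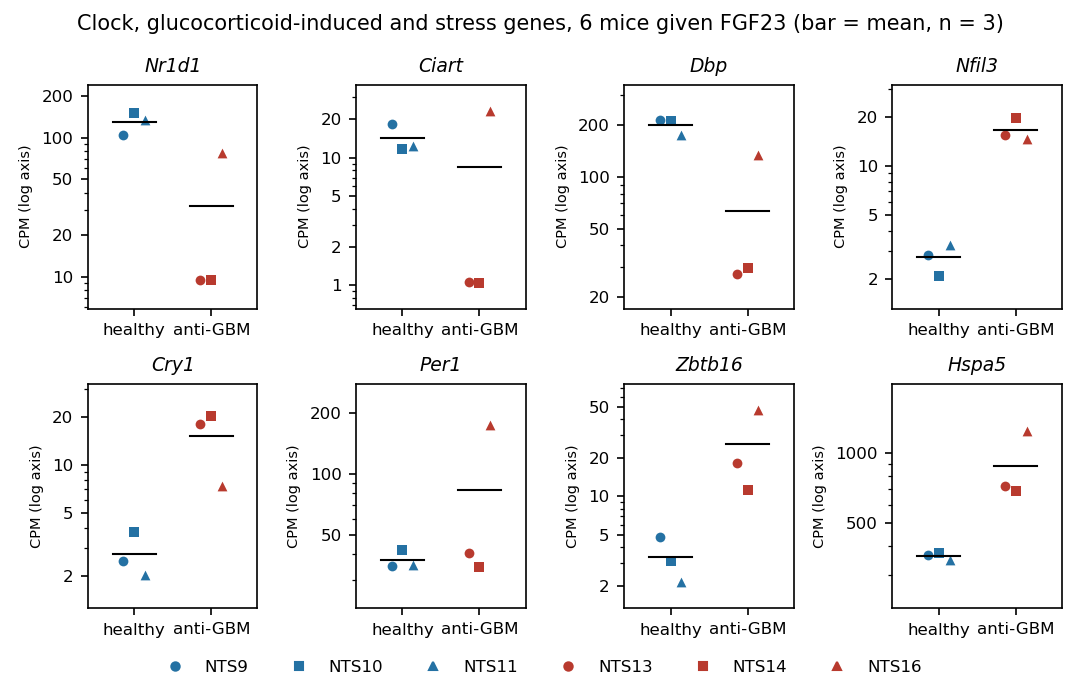
CPM per mouse on log axes for Nr1d1, Ciart, Dbp, Nfil3, Cry1, Per1, Zbtb16 and Hspa5 in the 3 healthy (blue) and 3 anti-GBM (red) mice given FGF23, each symbol being 1 mouse and each bar the group mean. NTS16 lies apart from NTS13 and NTS14 in all panels but that of Nfil3, at 77.7 CPM against 9.47 and 9.41 CPM for Nr1d1.

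The disease effect was then set against that of Adriamycin nephropathy in FGF23-treated female BALB/c mice (4 against 4), which had a single FGF23 injection. Strain, sex, length of treatment and experiment differ together with the model and cannot be told apart from it. Of 16954 genes tested in 1 fit of 30 kidney libraries, the anti-GBM effect was above the Adriamycin effect for 2114 (12.5%) and below it for 2128 (12.6%). Havcr1 differed by 6.83 ± 0.62 (SE) on the log2 scale, its log2 fold change in the Adriamycin model being -0.75 (adjusted p 0.626). Krt20, Serpina10, Lcn2 and Ccl2 differed by 6.33, 5.51, 5.02 and 4.9995 in the same direction. Of the genes lower in anti-GBM disease, Gm15441, Igfbp1, Cyp4a12a and Hrg differed by -3.65, -3.42, -3.04 and -2.92, Hrg encoding a plasma glycoprotein. By list, the effect was above that of the Adriamycin model in 23 of 35 injury genes, with a median difference of 1.73, and the median difference was 2.23 for macrophage genes, 1.99 for collagens, 1.55 for the type I interferon list and -0.65 for fatty acid oxidation.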

How the data were processed

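Kidney RNA was sequenced from stranded mRNA libraries with paired 58-base reads. The authors deposited whole-number counts per gene. The methods and the processing notes name bcl2fastq 2.20.0, FastQC 0.11.8, STAR 2.7.9a with GRCm38 and featureCounts 1.5.1 with Ensembl release 102, and do not give the strand or multi-mapping settings. Columns were assigned to groups by the headings of the study's own tables. The column called NTS14 here carries that number but another mouse's name.

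Counts of 14 libraries were fitted by group with edgeR 4.0.16 in R 4.3.3 (TMM, filterByExpr with a minimum of 10 counts, glmQLFit and glmQLFTest), and p-values were adjusted by Benjamini-Hochberg over all 15859 genes. A gene is said to have risen or fallen at an adjusted p below 0.05. The study names DESeq2, here an alternative (1.42.0). The Adriamycin difference came from 30 libraries. CPM are on the TMM-scaled library total. Figures were drawn with matplotlib 3.10.9. The scripts were tested on simulated counts. Genes were named by p and fold (8 per direction), by up to 3 called members per list and direction plus the member with the highest CPM, and from a fixed set of kidney genes. Some genes that these rules name are not reported here, though counts include them. Members and lists were chosen with earlier results of these data known. Alternatives were RLE scaling, other count filters, a robust fit, DESeq2, a fit of only the groups compared, another prior count for list levels and leaving out each mouse.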

Additional observations from a re-analysis of the deposited data

Results flagged for a closer look

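Each of the following genes had a disease effect that differed between groups of mice by a test of the difference itself, with edgeR and an adjusted p below 0.05. With FGF23 minus with vehicle, the difference in the log2 fold change between anti-GBM and healthy kidneys was 2.92 for Tgtp1, 2.39 for Iigp1, 2.36 for Tgtp2 and 1.40 for Cd274. These calls lay near the threshold and were lost in most fits without a mouse. That of Iigp1 was also lost in edgeR with RLE scaling (adjusted p 0.0552) and with the robust fit (adjusted p 0.0601). In all 3 FGF23-treated anti-GBM mice each of these genes was above the 3 FGF23-treated healthy mice.

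With anti-GBM disease minus Adriamycin nephropathy, both under FGF23, the difference was 6.83 for Havcr1, 6.33 for Krt20, 5.51 for Serpina10, 5.02 for Lcn2 and 4.9995 for Ccl2. It was -4.96 for Aldh1a3, -3.65 for Gm15441, -3.42 for Igfbp1, -3.04 for Cyp4a12a and -2.92 for Hrg. The value of Aldh1a3 depended on the healthy mouse NTS10, at 66.98 CPM. Strain, sex and length of treatment differed together with the model. For the genes of the FGF23 against vehicle difference, the vehicle groups of 4 mice had no sample flagged as far from the others. The BALB/c groups were not checked in this way.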

How the results depend on the processing

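No paired analysis was possible because the columns of the count table carry no replicate number shared between groups. In other settings than leaving out a mouse, 1092 of 1129 values of named genes kept their direction and their side of the threshold, as did 987 of 1196 when a mouse was left out, where 198 lost the call. The alternatives shared between 65.0% (without NTS13) and 99.3% (RLE scaling) of the genes called, every shared gene with the same sign, and rises made up between 53.4% and 63.2% of calls, with no scaling moving the median of all genes by more than 0.1. DESeq2 called 2479 rises and 2156 falls, against 2299 and 2011. With at least 10 counts in every library the strong falls went from 273 to 153. The higher differences between FGF23 and vehicle went from 5 to 3 with RLE scaling, 27 with no count filter and 39 with DESeq2, and the lower from 0 to 2 with no filter and 5 with DESeq2. The cause was not tested.

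With single mice left out, the falls ranged from 1086 to 1756, the strong falls from 178 to 294, the falls under vehicle from 2146 to 3179 (fewest without NTS2), the higher differences from 0 to 12, the lower differences from 0 to 2 and the genes below the Adriamycin effect from 1243 (without NTS13) to 2103. Directions turned for genes that were not called, or for Aldh1a3, which ranged from -3.46 to 0.48 (without NTS10) with a mouse left out. The others were Cxcl12, from -0.21 to 0.21 (without NTS10), with 0.00029 without NTS11, 0.04 without NTS13, 0.0074 with no filter and 0.0073 with at least 10 counts in every library, Cyp24a1, from -2.44 to 0.15 (without NTS9), Fgfr4, from -0.18 to 0.0095 (without NTS11), and Nphs1, from -0.22 to 0.15 (without NTS13), with 0.05 without NTS9. Of list counts, 213 of 222 stayed within 1.5 times in other settings and 182 of 222 with a mouse left out. Depth limits genes of few counts, such as S100a8 and Cldn14.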
